A study of Rattus norvegicus with 52 samples.

Results

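Cd36 RNA was measured by 5 probe sets on arrays of rat liver RNA, and all 5 were higher in entire liver sections from rats given clofibric acid (CA) than in those from control rats. In stained sections from such rats, 2 of the 5 probe sets, af072411_g_at and af072411_at, still stood above the stained controls at the higher dose. So did 3.35% of the probe sets tested in stained sections. For af072411_at the lowest array cleared the controls by 1 unit of intensity, and its call depended on how low values were treated. Of the 5 stained arrays at that dose, af072411_g_at was above background on 4 and af072411_at on 1. The other 3 probe sets were not above background on any of the 30 arrays that were not made from entire sections. The 5 probe sets are all those whose ID begins with ab005743, af072411 or rc_aa799326. They are 5 of 8740 non-control probe sets and 8799 in all. The pair of ab005743_at and ab005743_g_at and the pair of af072411_at and af072411_g_at each share an accession, and rc_aa799326_s_at stands alone. The gene was chosen by its rise in entire sections and its low values in stained sections, as seen for rc_aa799326_s_at and ab005743_g_at, so those contrasts are described here without p-values. The table names no genes, and no annotation used here pairs these IDs with a symbol, so the name Cd36 rests on the accessions by which the probe sets were chosen.

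CD36, also called fatty acid translocase, is a membrane glycoprotein that takes up long-chain fatty acids and, as a scavenger receptor, oxidized lipoproteins. It is abundant in adipocytes, heart and skeletal muscle, macrophages, platelets and capillary endothelium, and usually low in hepatocytes. CA is a fibrate, a class of lipid-lowering drugs that activate the nuclear receptor PPARα. With its partner RXR, PPARα binds response elements made of repeats of the half-site AGGTCA and turns on genes of fatty acid uptake and oxidation in rodent liver.

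All 52 arrays carried total RNA from liver of F344 rats, an inbred strain, and each array was 1 sample. Control rats were untreated, and treated rats received 0.29% or 0.54% CA, the labels giving neither the route nor the duration. Entire sections gave 8 control arrays, 8 at 0.29% and 6 at 0.54% CA. Stained sections gave 8, 7 and 5 arrays in the same order. Dehydrated sections gave 1 array per dose. So did sections labelled LCM-reference-time, where LCM is laser capture microdissection, the cutting of chosen regions out of a section under a microscope. Microdissected sections gave 2 arrays from control rats, 1 from rats at 0.29% and 1 at 0.54%. The labels do not say which regions were cut out, whether replicates came from separate animals or whether preparations share animals, so p-values below measure the spread between these samples, part of which may be technical. No label gives the age of the rats. No array intensity could be tied to a liver or other cell type marker by name, so the tissue label was not checked.

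The deposited values are intensities on a linear scale without a stated unit, and 20.6% to 30.1% of those of an array lay below 0. A probe set was counted as detected on an array when its intensity exceeded that array's noise limit, the 95th percentile of the sizes of the negative intensities. That limit was 35.0 to 81.0 on entire-section arrays (median 50.2) and 30 to 111 on stained-section arrays (median 46.0). The GAPDH 3′/5′ ratio, a control measure that rises when RNA is degraded or copied only in part, had a median of 1.54 on entire-section arrays and 8.45 on stained-section arrays. It had medians of 11.8, 4.70 and 7.71 on dehydrated, LCM-reference-time and microdissected arrays. Differences between preparations therefore run with a difference in this ratio, and its part in them was not tested. In a whole section, fewer cells that carry an RNA and less of that RNA per cell cannot be told apart.

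The stretch of the genome just before the Cd36 start is shown because the 5 probe sets moved together with a drug that acts through a DNA-binding receptor. RefSeq places these 250 bases at chr4:18246332-18246581 of the rat assembly GRCr8, on the plus strand. Capitals mark the 4 places where at least 5 of the 6 letters of AGGTCA match on either strand.
Cd36 upstream: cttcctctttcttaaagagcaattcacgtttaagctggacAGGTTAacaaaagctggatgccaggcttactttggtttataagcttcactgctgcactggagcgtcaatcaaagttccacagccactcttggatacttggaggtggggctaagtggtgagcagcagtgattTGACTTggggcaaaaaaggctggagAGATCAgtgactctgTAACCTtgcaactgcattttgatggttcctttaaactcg
Matches of this kind occurred in 89.6% of 33469 promoters of the same length, so their presence here is not particular to Cd36. The half-site AGGTCA itself was not found in this window, against 14.1% of promoters that hold it. The best match to AGGTCA repeated in the same direction after 1 base of any kind, on either strand, had 8 of 12 letters, which 74.5% of promoters equalled or exceeded. No ChIP or reporter readout accompanies these arrays, and the letters are given as a description of the locus. On the same chromosome the annotation lists Cd36l1 and Cd36-ps1 beside Cd36. In the maker's naming, the endings _g_at and _s_at mark probe sets whose probes can also match similar transcripts. Which of these copies each probe set reads was not tested, since probe sequences were not used here.

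In entire sections the intensity of every Cd36 probe set was higher at 0.29% than in controls, and higher again at 0.54%, in its group mean. For af072411_g_at, the 8 control arrays ran from 32 to 74 with a median of 48.5, the 8 arrays at 0.29% CA from 153 to 348 with a median of 270.5, and the 6 arrays at 0.54% CA from 368 to 762 with a median of 673.5. The 3 groups did not overlap. Their means were 49.4 ± 16.8 (SD, n = 8), 262 ± 67.9 (SD, n = 8) and 614.5 ± 161 (SD, n = 6). For af072411_at, controls ran from 14 to 59 (median 25.5), arrays at 0.29% from 76 to 279 (median 225.0) and arrays at 0.54% from 350 to 606 (median 543.5). Here too the 3 groups were separate, with means of 32.4 ± 15.5 (SD, n = 8), 215.5 ± 61.6 (SD, n = 8) and 507.5 ± 93.2 (SD, n = 6).

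The other 3 probe sets were under the noise limit on all 8 control arrays. For rc_aa799326_s_at, controls ran from -29 to 11 (median -3.0), arrays at 0.29% from -1 to 143 (median 106.0) and arrays at 0.54% from 122 to 341 (median 263.5). The arrays at 0.54% lay above every control, but their lowest value was under the highest at 0.29%, and 1 array at 0.29% lay within the control range. For ab005743_at, controls ran from 9 to 26 (median 12.5), arrays at 0.29% from 9 to 84 (median 70.5) and arrays at 0.54% from 99 to 172 (median 131.5). The group at 0.54% was separate from both others, and 1 array at 0.29% again lay within the control range. For ab005743_g_at, controls ran from -14 to 3 (median -4.0), arrays at 0.29% from -2 to 78 (median 59.0) and arrays at 0.54% from 44 to 164 (median 154.5). Its arrays at 0.54% were above every control, while the lowest of them overlapped with the arrays at 0.29%.

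**Figure D1:**
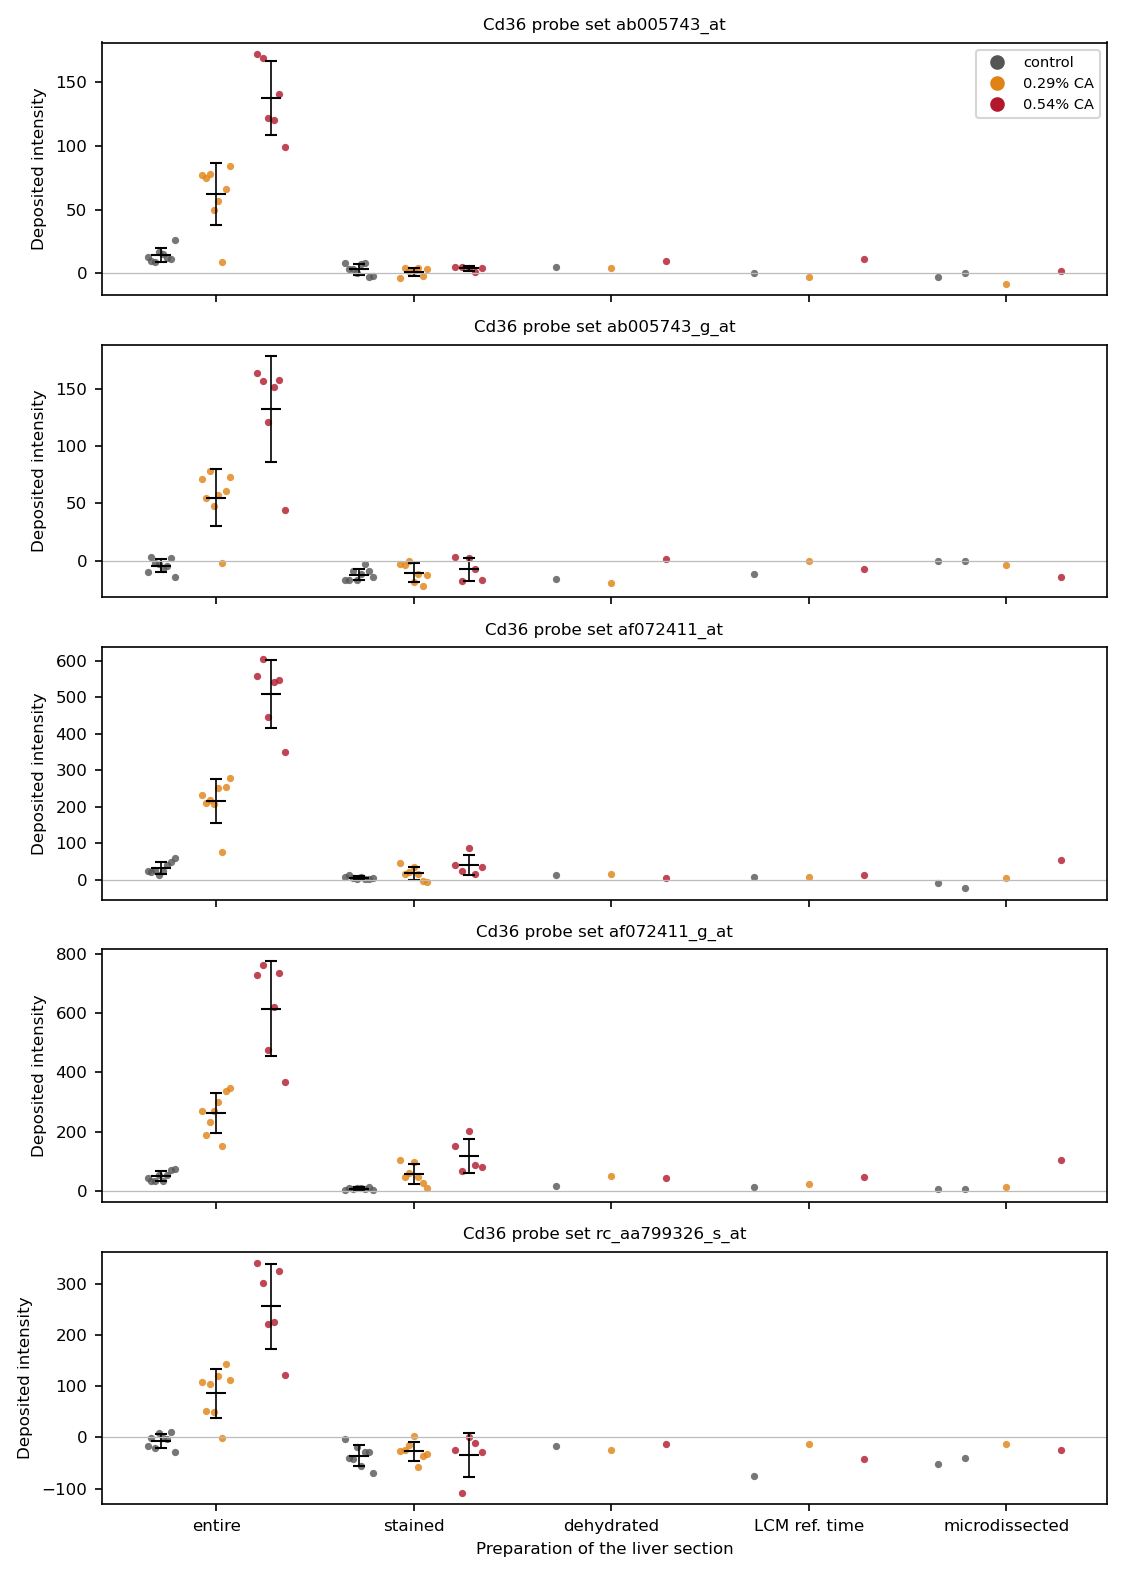
Deposited intensity (vertical axis, linear, arbitrary units, a separate scale for each panel) of the 5 Cd36 probe sets on all 52 arrays, 1 point per array, ordered by preparation and within it by dose (control grey, 0.29% CA orange, 0.54% CA red). Black bars give mean ± SD for groups of over 2 arrays; in entire sections every array at 0.54% CA lies above every control in all 5 panels, and in the other preparations only the af072411 panels rise visibly above 0 with CA.

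At 0.54% CA, the arrays lay above every control for 5 of 5 Cd36 probe sets, against 2.79% of the 7804 probe sets tested in entire sections. At 0.29% this held for 2 of 5, af072411_at and af072411_g_at, against 2.04%. Both shares describe the contrast by which the gene was chosen. On the normalized log2 scale, the difference of 0.54% CA from control was 3.69 ± 0.19 (SE) for af072411_g_at, 4.10 ± 0.28 for af072411_at, 3.34 ± 0.33 for ab005743_at, 4.59 ± 0.45 for ab005743_g_at and 5.38 ± 0.53 for rc_aa799326_s_at. At 0.29% the differences from control were 2.40 ± 0.18, 2.78 ± 0.26, 2.02 ± 0.30, 3.19 ± 0.42 and 3.46 ± 0.49 in the same order. Calls of a rise at an adjusted p under 0.05 covered 8.1% of probe sets at 0.54% and 5.55% at 0.29% in these contrasts.

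For the 3 probe sets that no control array detected, a fitted fold depends on where low values are cut off, and only a lower bound can be given. With low values raised to 20, the log2 differences at 0.54% were 2.44 for ab005743_at, 2.27 for ab005743_g_at and 3.28 for rc_aa799326_s_at. They were 3.68 for af072411_g_at and 3.91 for af072411_at. Set against the noise limits of the control arrays, rc_aa799326_s_at was at least 4.44-fold higher at 0.54% CA, ab005743_at at least 2.50-fold and ab005743_g_at at least 2.20-fold. These bounds compare the mean normalized log2 value of the CA arrays with the mean, over control arrays, of the noise limit or the probe set's own value where that is higher. Of the 14 CA arrays from entire sections, 14 detected af072411_at and 14 af072411_g_at, 12 detected ab005743_at, 11 ab005743_g_at and 12 rc_aa799326_s_at. Among the 8 controls, 1 array detected af072411_at and 2 detected af072411_g_at. With an intensity of 20 as the limit these became 7 and 8.

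Whether the higher dose gave more Cd36 RNA than the lower was tested within entire sections. This contrast is not the one that chose the gene, but it uses the same CA arrays. Its p-values are therefore not independent of that choice. The rise from 0.29% to 0.54% CA passed the test for both af072411 probe sets and missed the threshold for the other 3. For af072411_g_at it was 1.29 ± 0.19 (SE) on the log2 scale, or 2.45-fold, with limma and a Benjamini-Hochberg adjusted p of 0.000810. For af072411_at it was 1.33 ± 0.28 with an adjusted p of 0.0270 by limma. The 6 arrays at 0.54% lay above all 8 at 0.29% for both. Only 0.474% of probe sets were called higher in this contrast, 37 of 7804, and 0.295% had separate groups in this direction.

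The call for af072411_at rested on few arrays. It was lost with limma without replicate 4 of the group at 0.29% (adjusted p 0.0517), without replicate 2 at 0.54% (0.0710) and without replicate 5 at 0.54% (0.0587), and over all 33 alternative fits its adjusted p ran from 0.00204 to 0.227. That for af072411_g_at was kept in 33 of 33 fits, with adjusted p-values from 4.62e-05 to 0.0476. For ab005743_at the rise was 1.32 ± 0.33 with a limma adjusted p of 0.0563, although its 2 groups did not overlap. For ab005743_g_at it was 1.40 ± 0.45 with an adjusted p of 0.185 by limma, and for rc_aa799326_s_at 1.92 ± 0.53 with 0.0919.

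Within the group at 0.29% one array stood below the others. Replicate 6 of the entire sections at 0.29% CA was the lowest of its group for 5 of 5 Cd36 probe sets. It read 76 for af072411_at and 153 for af072411_g_at, both above every control, but 9 for ab005743_at, -2 for ab005743_g_at and -1 for rc_aa799326_s_at, all within the range of the controls. Without it, the rise from 0.29% to 0.54% became smaller and passed limma's test for all 3: 0.99 for ab005743_at (adjusted p 0.00228), 0.95 for ab005743_g_at (0.0347) and 1.40 for rc_aa799326_s_at (0.00941). That array was singled out by these same readings, so the fits without it are a description and no separate evidence of the step. Over all 33 alternative fits the adjusted p-values ran from 0.00129 to 0.137, 0.00847 to 0.368 and 0.00308 to 0.227. The step was called in 8, 4 and 6 of those fits. The group means at 0.29% without that array were 69.6 ± 12.4 (SD, n = 7) for ab005743_at, 63.3 ± 10.9 for ab005743_g_at and 98.6 ± 34.9 for rc_aa799326_s_at. The array's GAPDH ratio was 2.65, and its median correlation with the other arrays of its group was 0.934, against 0.950 to 0.969 for the others.

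Replicate 6 of the group at 0.54% was likewise the lowest of its group for 5 of 5 probe sets. Its readings were 99 for ab005743_at, 44 for ab005743_g_at, 350 for af072411_at, 368 for af072411_g_at and 122 for rc_aa799326_s_at. It had the highest 5S rRNA intensity among entire-section arrays (115) and the highest noise limit (81.0), so that ab005743_g_at did not count as detected there. Without it, the mean at 0.54% was 150.4 ± 17.0 (SD, n = 5) for ab005743_g_at and 283 ± 56.5 for rc_aa799326_s_at. The shared number was not treated as a pairing, since the labels do not tie replicate numbers across groups.

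In stained sections af072411_g_at rose with CA at both doses and af072411_at at the higher one. Both probe sets belong to the gene that was chosen by low stained readings. The p-values given below for stained sections are therefore not independent of that choice. For af072411_g_at, the 8 stained controls ran from 2 to 13 with a median of 9.0, all under the noise limit. The 7 stained arrays at 0.29% CA read 103, 48, 61, 99, 46, 28 and 10, and the 5 at 0.54% read 152, 66, 202, 87 and 81. Every array at 0.54% lay above every control, and at 0.29% 6 of 7 did, the exception being replicate 7. The groups were separate in this direction for 3.35% of the probe sets tested at 0.54%. At 0.29%, where those of af072411_g_at were not, the share was 0.796%. Against control, the log2 difference was 2.49 ± 0.39 (SE) at 0.29% (limma, adjusted p 0.000384) and 3.59 ± 0.43 at 0.54% (adjusted p 1.17e-05). Both calls were kept in 31 of 31 alternative fits. Calls of a rise covered 1.83% of the 7913 probe sets tested at 0.29% and 3.12% at 0.54%.

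For af072411_at, stained controls ran from 1 to 14 (median 4.5) and the arrays at 0.29% from -7 to 45 (median 16.0). The 5 arrays at 0.54% read 39, 24, 88, 15 and 36. The arrays at 0.54% were all above the controls, the lowest by 1 unit of intensity, and those at 0.29% overlapped with the controls. The log2 difference was 2.52 ± 0.55 at 0.54% (limma, adjusted p 0.00670) and 1.32 ± 0.50 at 0.29% (adjusted p 0.204). The call at 0.54% was lost when low values were raised to 20 instead of 4 before taking logs (0.79, limma adjusted p 0.0521, the highest of 31 alternative fits). At 0.54%, 3.35% of probe sets had stained CA arrays that were all above the controls.

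The step from 0.29% to 0.54% in stained sections passed the test for neither. It was 1.10 ± 0.45 for af072411_g_at and 1.20 ± 0.57 for af072411_at, each with an adjusted p of 0.951 by limma, in a contrast in which 5 of 7913 probe sets were called in either direction, or 0.0632%. In the entire sections the same step was 1.29 and 1.33.

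How large the CA response of af072411_g_at was in stained sections relative to entire ones depends on how values near 0 are treated. The log2 response at 0.54% CA differed between stained and entire sections by -0.10 (95% confidence interval -1.04 to 0.85), and at 0.29% by 0.09 (-0.77 to 0.96). With low values raised to 20 in place of 4, the difference was -1.34 (-2.06 to -0.62) at 0.54% and -1.10 (-1.75 to -0.44) at 0.29%. All stained controls for this probe set lay under 20 and under the noise limit, so the stained response is bounded from below only, at 1.76-fold or more at 0.54% CA. With CA its level was lower in stained than in entire sections, with log2 differences of -2.12 ± 0.31 at 0.29% and -2.31 ± 0.36 at 0.54%. Among controls the stained arrays give no measured level, and the fitted difference was -2.22 with the floor of 4 and -0.97 with the floor of 20.

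For af072411_at the size of the stained response cannot be set against that in entire sections. All 8 stained controls, 5 of 7 stained arrays at 0.29% and 4 of 5 at 0.54% were under the noise limit, so its fitted response moves with the floor and no bound on it could be given. The fitted difference from the entire response at 0.54% was -1.58 on the log2 scale with low values raised to 4 and -3.12 with low values raised to 20. In deposited intensities at 0.54%, the highest stained array read 88 and the lowest entire-section array 350.

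**Figure D2:**
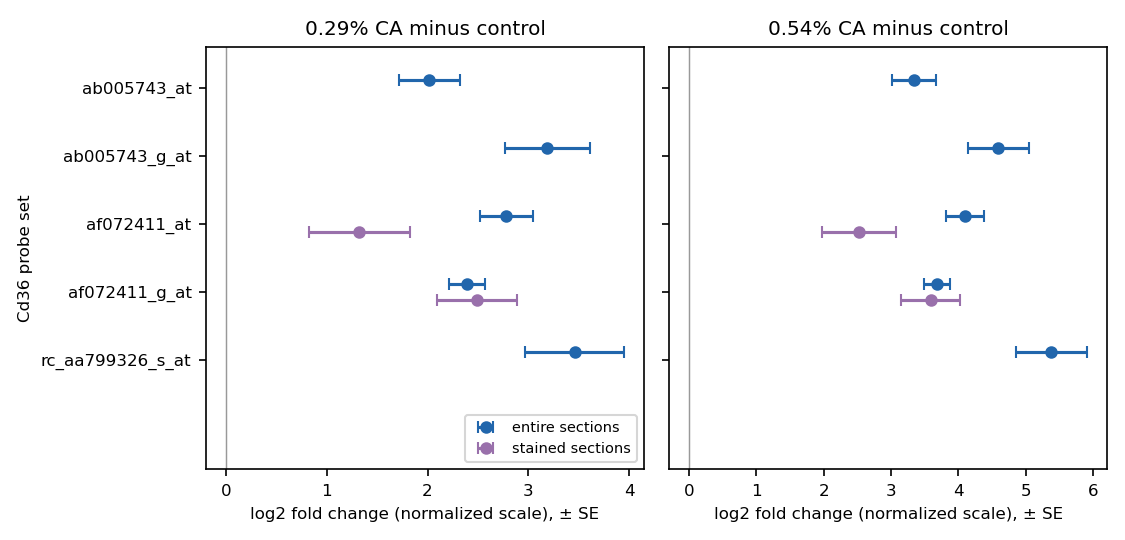
Difference from control on the normalized log2 scale (horizontal axis, point ± SE) at 0.29% CA (left) and 0.54% CA (right) for the 5 Cd36 probe sets, in entire sections (blue) and, for the 2 af072411 probe sets, stained sections (purple). Stained values of the other 3 are not drawn because they were not detected on any stained array; af072411_g_at has overlapping bars in the 2 preparations and af072411_at a lower stained value. All points have low values raised to 4, on which the stained values, and the entire values of the 3 probe sets undetected in controls, depend.

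The ab005743 pair and rc_aa799326_s_at did not stand above the stained controls at either dose. For ab005743_at, stained controls ran from -3 to 8 (median 3.0), arrays at 0.29% from -4 to 4 (median 2.0) and arrays at 0.54% from 1 to 5 (median 4.0). For ab005743_g_at the same groups ran from -17 to -3, from -22 to 0 and from -18 to 3. For rc_aa799326_s_at they ran from -69 to -4, from -57 to 2 and from -108 to 0. In each case the CA arrays overlapped with the controls, and no stained reading exceeded 8, against a lowest noise limit of 30. No fitted difference is given for these 3, since it would rest on values under the noise limit.

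At 0.54% CA, rc_aa799326_s_at was at least 3.47-fold higher in entire than in stained sections, ab005743_at at least 1.95-fold and ab005743_g_at at least 1.72-fold, again against the noise limits. This contrast is one that chose the gene, and the bounds describe it. The bounds compare levels, whereas the following values compare CA responses, as stained minus entire on the log2 scale. Among the 627 probe sets called higher at 0.54% CA in entire sections and tested in stained ones, the median difference in response was -0.19, with quartiles of -0.60 and 0.13. Those 627 were taken by their call in entire sections. Among the 192 called higher in both preparations the median was 0.13, with quartiles of -0.19 and 0.50.

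Of the 12 stained CA arrays, 8 detected af072411_g_at, 3 detected af072411_at and 0 detected any of the other 3. No stained control detected any Cd36 probe set. To set this loss beside other CA-responsive RNAs, 379 probe sets were called higher at 0.54% CA in entire sections and detected on all 6 of those arrays, and 4 of the 5 Cd36 probe sets are among them, ab005743_g_at being left out by its array under the noise limit. Of the 379, 320 (84.4%) were detected on all 5 stained arrays at 0.54%. Only 4 of the 379 (1.06%) were detected on none of the 30 arrays of other preparations, and 2 of those 4 were rc_aa799326_s_at and ab005743_at. Their place there restates the choice of the gene by its low stained values and is no separate result. The other members of that group were u67207_s_at and s62516_s_at, with log2 rises of 1.32 and 0.95 in entire sections.

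In the other 3 preparations, where each CA dose had 1 array, only af072411_g_at was detected. The values are given without a test. For af072411_g_at, the control, 0.29% and 0.54% arrays read 17, 49 and 45 in dehydrated sections. They read 12, 22 and 48 in LCM-reference-time sections. In microdissected sections, both controls read 6, the 0.29% array 12 and the 0.54% array 105. The 0.54% array was thus above its control in each, and 3 of these 6 CA arrays exceeded their noise limits: both dehydrated ones and the microdissected one at 0.54%.

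For af072411_at the same order gave 14, 16 and 5 after dehydration. LCM-reference-time arrays read 6, 6 and 13. In microdissected sections it gave -9 and -23 for the controls, 4 at 0.29% and 55 at 0.54%. None of these exceeded the noise limit, which was 67.0 on the microdissected array at 0.54%. That array had the highest 5S rRNA intensity of the 4 microdissected ones, 754, and the lowest GAPDH ratio among them, 3.02.

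The other 3 probe sets stayed under the noise limit on all 10 arrays of these preparations. Their readings lay between -8 and 11 for ab005743_at and between -20 and 1 for ab005743_g_at. For rc_aa799326_s_at they lay between -76 and -12. The highest value of rc_aa799326_s_at on any of the 30 arrays outside entire sections was 2, and that of ab005743_at was 11.

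Ranks within an array do not depend on its scale, and those of probe sets under the noise limit give no measured level. The median rank of rc_aa799326_s_at was low in every stained group, with percentiles of 2.41 in controls and 3.53 at 0.29% CA. The reason was not tested. At 0.54% CA, rc_aa799326_s_at had a median percentile of 86.8 among all intensities of the array in entire sections and 5.26 in stained ones, and 5.52 on the microdissected array. For ab005743_g_at these were 81.8, 12.1 and 10.4, and for ab005743_at 80.9, 35.6 and 30.2. For af072411_at they were 91.6, 66.02 and 72.5. For af072411_g_at they were 92.8, 78.4 and 81.1, while its stained controls had a median percentile of 44.2.

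**Figure D3:**
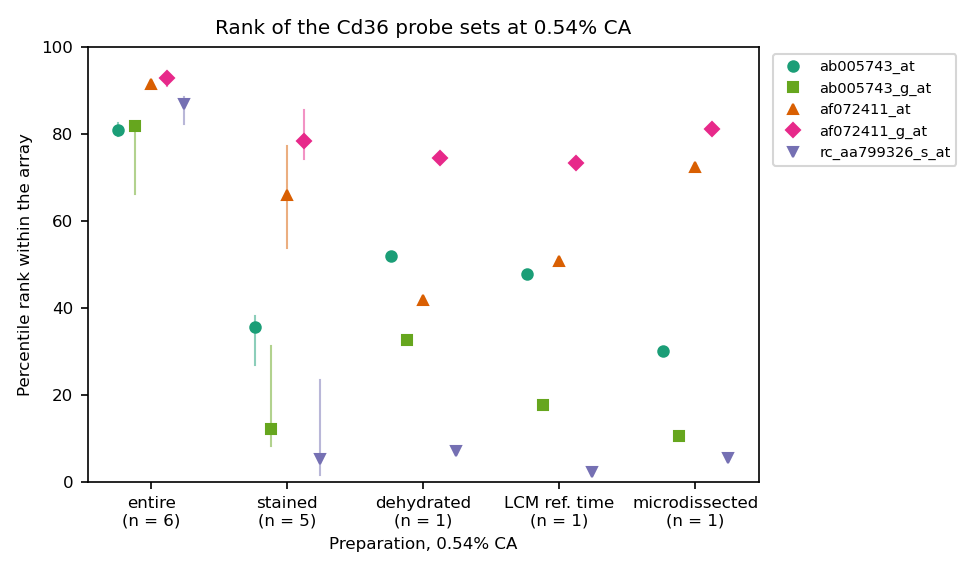
Percentile rank of each Cd36 probe set among the intensities of its array (vertical axis, 0 to 100) at 0.54% CA, by preparation; symbols give the median, and vertical lines the lowest to highest array where there are several. Read within each probe set, af072411_g_at moves from 92.8 in entire to 78.4 in stained sections, and rc_aa799326_s_at from 86.8 to 5.26.

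Since the preparations differ in the GAPDH ratio, single arrays with an unusual ratio are of interest. In entire sections 3 arrays had a ratio above 4. At 0.54% CA, replicate 5 had a ratio of 6.49 and read 141 for ab005743_at, 158 for ab005743_g_at, 546 for af072411_at, 736 for af072411_g_at and 326 for rc_aa799326_s_at. At 0.29%, replicate 7 had a ratio of 5.07 and read 66, 61, 253, 336 and 143 in the same order. Both lay inside the range of the other arrays of their groups, or were the highest, for every Cd36 probe set.

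In stained sections, replicate 3 at 0.54% had the lowest ratio of that preparation, 2.59. It gave the highest stained readings for af072411_at (88) and af072411_g_at (202), but read 4 for ab005743_at, 2 for ab005743_g_at and 0 for rc_aa799326_s_at. The ranges of the ratio in the 2 preparations thus met on a few arrays. Of the 3 entire-section CA arrays with a ratio as high as this one or higher, 2 read well above every stained array for these 3 probe sets. The third, replicate 6 at 0.29%, read -2 and -1 for ab005743_g_at and rc_aa799326_s_at, within the stained range. These are single arrays, the ratio runs with the preparation, and its part in the readings was not tested.

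**Figure D4:**
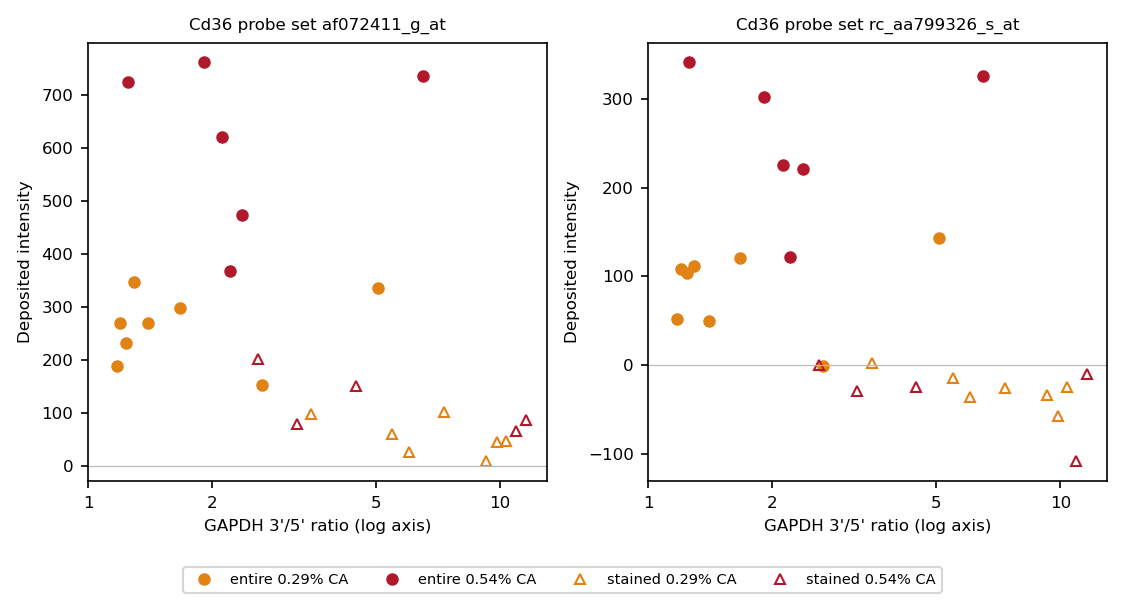
Deposited intensity (vertical axis, linear) against the GAPDH 3′/5′ ratio (horizontal axis, log scale) on the CA arrays of entire sections (filled circles) and stained sections (open triangles), for af072411_g_at (left) and rc_aa799326_s_at (right). The entire-section arrays with ratios of 5.07 and 6.49 read 336 and 736 for af072411_g_at, and 143 and 326 for rc_aa799326_s_at, whereas no stained array exceeds 2 for the latter; the entire-section array with a ratio of 2.65 reads 153 and -1.

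The 5 probe sets followed each other closely across the 22 entire-section arrays. Each correlated with the mean of all 5 standardized probe sets at a Pearson r of 0.978 to 0.987, a mean of which it is itself a part. After group means were subtracted, r was 0.940 for rc_aa799326_s_at, 0.919 for both ab005743 probe sets, 0.750 for af072411_at and 0.714 for af072411_g_at. The group means, and the low replicate 6 arrays, are common to all these values.

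Among 5985 probe sets compared over those arrays, the most alike to Cd36 were j02844_s_at with r = 0.971 (0.83 after subtracting group means) and m89945mrna_at with r = 0.966 (0.66). The intensity of j02844_s_at was 146 to 257 in entire controls and 651 to 811 at 0.54% CA. In stained sections it was 11 to 39 in controls and 28 to 208 at 0.54%. The probe sets most opposite were m12112mrna#3_s_at (r = -0.955) and j02596cds_g_at (r = -0.945). All 22 points share 3 dose groups and 1 normalization, so r is a description of likeness only.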

How the data were processed

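The values deposited by the authors are linear intensities, whole numbers, 1 for each probe set on each array. How they were scaled is not stated in the labels or the file. Intensities under 4, the 10th percentile of the positive ones, were raised to 4, converted to log2 and quantile normalized over the 8740 non-control probe sets of all 52 arrays. Plain intensities in the text are the deposited ones. Groups came from the labels. The 3 dose groups of entire sections, the 3 of stained sections and all 6 together were each fitted by lmFit and eBayes of limma 3.58.1 (R 4.3.3), with two-sided tests. Benjamini-Hochberg adjustment covered non-control probe sets above the floor on at least 1 array, and calls had an adjusted p under 0.05. Exact permutation tests used SciPy 1.17.1 in Python 3.11.15, and plots matplotlib 3.10.9. In simulated data, 2-fold changes were placed only in probe sets with a higher mean level, so their recovery need not hold near the noise. Of those changes, the fit recovered 75.5% between the entire CA doses. In stained sections it recovered 31% for 0.54% CA against control and 29% between the CA doses. The false share of calls was 3.21%, 6.06% and 9.38% in the same order.

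The probe sets, gene lists and comparisons were chosen with earlier results of these data known. The rule named the Cd36 probe sets, members of gene lists, the 5 probe sets most alike in pattern and up to 10 detected in entire sections only. Because the gene table matched 0 of the accessions in these IDs, the pathway lists and cell type markers could not be used, and other probe sets are given by ID, at most 2 in each direction.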

Additional observations from a re-analysis of the deposited data

Results flagged for a closer look

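Of 30 combinations of a Cd36 probe set and a group of 4 to 10 arrays, 8 held an array set apart from its group by a gap that is large relative to the group's range. Chance gives about 1 in 20 for a single combination. The combinations share 1 gene and the same arrays, so their count cannot be set against that share. In entire sections, replicate 6 at 0.29% CA was set apart on the low side at 9 for ab005743_at, -2 for ab005743_g_at and 76 for af072411_at. Replicate 6 at 0.54% CA was set apart on the low side at 44 for ab005743_g_at. Entire control replicate 8 was set apart on the high side at 26 for ab005743_at, under its noise limit. In stained sections, control replicate 2 was high at 14 for af072411_at. Replicate 4 at 0.54% was low at 1 for ab005743_at, and replicate 2 at 0.54% was low at -108 for rc_aa799326_s_at. These 3 stained readings all lie within the noise.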

How the results depend on the processing

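The CA responses of the 5 probe sets in entire sections were above 0 in 33 of 33 alternative fits at both doses. No alternative turned the direction of the tested steps and stained responses. The difference in response of af072411_g_at between preparations at 0.54% CA, -0.10, turned to 0.06 on the deposited scale centred on the median. Apart from left-out arrays, 243 values were recomputed under an alternative, and 192 of them kept the direction and the side of the threshold, or for counts stayed within 1.5 times. For the step from 0.29% to 0.54% CA in entire sections, ab005743_at also passed the threshold with a floor of 20 (log2 1.17), a filter at the 75th percentile (1.32), all 15 groups in the fit (1.32), array weights (1.14), a trend and robust prior (1.32) and the GAPDH ratio as a covariate (1.42). For ab005743_g_at this held with the floor of 20 (1.11), all 15 groups (1.40) and array weights (1.27). For rc_aa799326_s_at it held with the floor of 20 (1.63), the filter (1.92), all 15 groups (1.92) and weights (1.72). The exact permutation tests of deposited intensities, two-sided and unadjusted, gave differences of 75.2 (p = 0.000666), 77.5 (p = 0.00533) and 170.04 (p = 0.00133) for these 3. With all 15 groups, af072411_at lost its call (1.33, limma adjusted p 0.227).

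After group means were subtracted, same-numbered arrays of different groups had correlations of -0.242 to 0.583 (median 0.067) in entire sections. In stained sections these ran from -0.319 to 0.679 (median 0.0954). Of the pairs, 8 of 20 in entire sections and 8 of 17 in stained ones were above 0.1. Pairs with different numbers were not set beside them, so these values cannot decide whether the numbers are a pairing. With the replicate block, the step was 1.44 for ab005743_at and 2.16 for rc_aa799326_s_at, both past the threshold, and the count of calls in that contrast was 211 in place of 79, and 1 in place of 5 in stained sections.

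In stained sections af072411_at at 0.29% passed with all 15 groups (1.32) and with array weights (1.88), and at 0.54% failed with the floor of 20 (0.79). The count of 79 calls became 47 on the deposited scale centred on the median, 132 with the floor of 20, 41 with all 15 groups and 331 with weights. All 15 groups also gave 539 in place of 877 and 790 in place of 1236 for CA against entire controls, and 546 in place of 286 and 964 in place of 499 for stained ones. Weights gave 1933 in place of 1236, and the GAPDH covariate 301 in place of 499. The 5 calls between stained CA doses became 10 with the floor of 20, 9 with the filter, 18 with all 15 groups, 19 with weights, 10 with the trend prior, 2 with the GAPDH covariate and 3 without the 3 stained arrays of 5S rRNA above 200. The causes were not tested. The GAPDH covariate, the exclusion by 5S rRNA and the permutation tests in stained sections were added after seeing the data.

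Leaving out each array in turn gave a step of 0.99 to 1.42 for ab005743_at, 0.95 to 1.68 for ab005743_g_at, 1.15 to 1.40 for af072411_at, 1.20 to 1.37 for af072411_g_at and 1.40 to 2.08 for rc_aa799326_s_at, and counts of 33 to 118. In stained sections it gave 2.32 to 2.76 and 3.40 to 3.76 for af072411_g_at at the 2 doses, 1.06 to 1.63 and 2.22 to 2.76 for af072411_at, and counts of 1 to 9 for the step between doses.

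Detection moved with its limit. With a limit at the 99th percentile of the negative intensities, the entire CA arrays that detected ab005743_at and ab005743_g_at fell from 12 and 11 to 5 and 5, the stained CA arrays that detected af072411_g_at from 8 to 4 and af072411_at from 3 to 1, and the other CA arrays that detected af072411_g_at from 3 to 0. With a limit of 20, af072411_at and af072411_g_at were detected on 7 and 8 of the 8 entire controls in place of 1 and 2, af072411_at on 7 stained CA arrays and 1 other, and af072411_g_at on 5 others. With the 75th percentile of all intensities these were 1 stained array for af072411_at and 1 other for af072411_g_at. The ab005743 pair and rc_aa799326_s_at were detected on 0 of the 30 arrays outside entire sections under each of the 4 limits. Signal over background limits every stained value: at 2 to 13, the stained controls of af072411_g_at carry no measured level, and in 3 preparations each CA dose has 1 array.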
